A study of Mus musculus with 32 samples.

Results

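Leptin receptor and its signalling genes were read in the liver, muscle and hypothalamus of COX10 KO mice. The 7 genes are Lepr (the leptin receptor), Jak2, Stat3, Sh2b1, Socs3, Ptpn1 and Ptpn2. They form the core of the receptor's signalling path and were taken by symbol from 55401 gene identifiers in the count files, where all 7 were found. COX10 assembles cytochrome c oxidase, and in the KO the gene was deleted in skeletal muscle by crossing mice homozygous for the floxed COX10 allele with Myl1tm1(cre)Sjb mice, whose Cre is expressed from the Myl1 locus of muscle fibres. Control (CTL) and COX10 KO mice were C57BL/6 and 200 days old, and the alleles carried by CTL mice are not given in the labels. Liver and calf muscle (gastrocnemius and soleus) came from 6 CTL and 6 COX10 KO mice, labelled 3 females and 3 males per genotype. Hypothalamus came from males by label, 4 of each genotype. Nothing in the labels says which libraries of different tissues share a mouse.

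Leptin is a hormone of fat cells that reports energy stores. It binds a receptor without kinase activity of its own. The long receptor isoform carries the kinase JAK2, which phosphorylates the receptor and the transcription factor STAT3, and the adaptor SH2B1 enhances JAK2 activity. SOCS3, induced by STAT3, and the tyrosine phosphatases PTP1B (Ptpn1) and TCPTP (Ptpn2) end the signal. The hypothalamus is the best known site of leptin action on feeding, whereas short and soluble receptor isoforms predominate elsewhere, and liver is a main source of the soluble receptor in blood.

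Lepr lies on the plus strand of chromosome 4 (GRCm38, 101717404 to 101815352). It has 7 annotated transcripts, of which 4 are coding, and these 4 end at 4 different positions. Because each library was read from the 3′ end of polyadenylated RNA and reads were summed per gene, the long, short and soluble forms are pooled in the values below. No other gene overlaps Lepr in the annotation. Stat3 overlaps the 3′ end of Stat5a on the opposite strand over chr11:100885098-100885169, and the strand setting of the counting is not given in the sources used here, so that reads of Stat3 and Stat5a may be mixed. The promoter windows of Lepr, the member with the largest fold change, and of Socs3, the feedback gene that STAT3 switches on, are shown because they are where a STAT match would be looked for. They run from 250 bases before to 50 bases after each start site (RefSeq, GRCm38.p6), and capitals mark a STAT match (TTCNNNGAA, searched on both strands).
Lepr, first start site, chr4:101717157-101717456, plus strand: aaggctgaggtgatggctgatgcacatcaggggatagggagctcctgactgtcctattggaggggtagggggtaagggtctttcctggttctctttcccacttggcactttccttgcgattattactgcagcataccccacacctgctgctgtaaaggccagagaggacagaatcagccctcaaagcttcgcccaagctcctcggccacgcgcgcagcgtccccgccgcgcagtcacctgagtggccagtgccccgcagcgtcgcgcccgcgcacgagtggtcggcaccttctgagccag
Lepr, second start site, chr4:101717656-101717955, plus strand: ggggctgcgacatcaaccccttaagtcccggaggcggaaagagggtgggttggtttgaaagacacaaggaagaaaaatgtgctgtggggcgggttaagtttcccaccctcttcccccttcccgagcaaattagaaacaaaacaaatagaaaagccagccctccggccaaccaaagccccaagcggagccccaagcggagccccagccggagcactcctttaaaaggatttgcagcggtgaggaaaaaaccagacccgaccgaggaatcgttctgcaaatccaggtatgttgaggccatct
Socs3, chr11:117969317-117969616, minus strand: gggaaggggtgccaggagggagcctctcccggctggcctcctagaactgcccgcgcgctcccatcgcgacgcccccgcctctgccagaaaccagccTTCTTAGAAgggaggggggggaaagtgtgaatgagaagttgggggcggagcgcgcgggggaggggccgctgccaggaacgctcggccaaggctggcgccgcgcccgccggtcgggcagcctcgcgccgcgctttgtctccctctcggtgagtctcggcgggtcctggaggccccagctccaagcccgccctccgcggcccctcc
Both Lepr windows lacked a match, and the Socs3 window held 1, TTCTTAGAA. Over 32851 promoter windows of the same length, 8.3% held a match. The glucocorticoid receptor core ACANNNTGT, held by 6.85% of windows, was not found in either Lepr window.

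Libraries held 674311 to 16044634 counts in liver, 434494 to 11404800 in muscle and 3526613 to 22321322 in hypothalamus. The transcripts of Xist and of Y-linked genes went against the labelled sex in 2 of 32 libraries, CTL 1 and CTL 4 of liver. Muscle CTL 2, the shallowest library, held 520.4 counts per 1e6 counts (CPM, scaled by trimmed means of M values within a tissue) of the fat gene Adipoq against 2.18 to 61.9 in the other muscle libraries. Each tissue showed its own defining markers. Hepatocyte markers summed to 77037.1 CPM or more in every liver library, muscle fibre markers to 52131.0 CPM or more in every muscle library and the markers of hypothalamic neurons to 426.5 CPM or more in every hypothalamus library. The neuron sums varied widely, from 620.1 to 1449.5 CPM in CTL and from 426.5 to 1626.3 CPM in COX10 KO hypothalamus. The part of neuron content in the hypothalamus values below was not tested. In muscle Cox10 itself read 109.8 ± 42.3 CPM in CTL mice against 113.4 ± 16.2 CPM in the KO (SD, n = 6 each). The sources used here do not say which exon was floxed, and reads at the 3′ end check a deletion only where it includes that end.

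In liver, Lepr was higher in COX10 KO than in CTL mice. The 6 CTL livers held 0.716, 2.53, 1.70, 6.12, 1.17 and 0.488 CPM of Lepr in replicates 1 to 6. The 6 COX10 KO livers held 14.5, 27.3, 65.5, 17.7, 7.60 and 42.4 CPM. Every COX10 KO liver lay above every CTL liver, with the closest approach between CTL 4 and COX10 KO 5. The means were 2.12 ± 2.09 CPM and 29.2 ± 21.5 CPM (SD, n = 6 each). The quasi-likelihood test of edgeR, with labelled sex as a covariate, gave a fold change of 15.3 (log2 3.94, SE 0.65, adjusted p = 0.0423, Benjamini-Hochberg over 9707 genes). The 95% interval of the fold was 5.83 to 40.1. Permuting the genotype labels over the CPM values (exact, two-sided) gave p = 0.00216, the smallest that 6 against 6 allow.

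**Figure D1:**
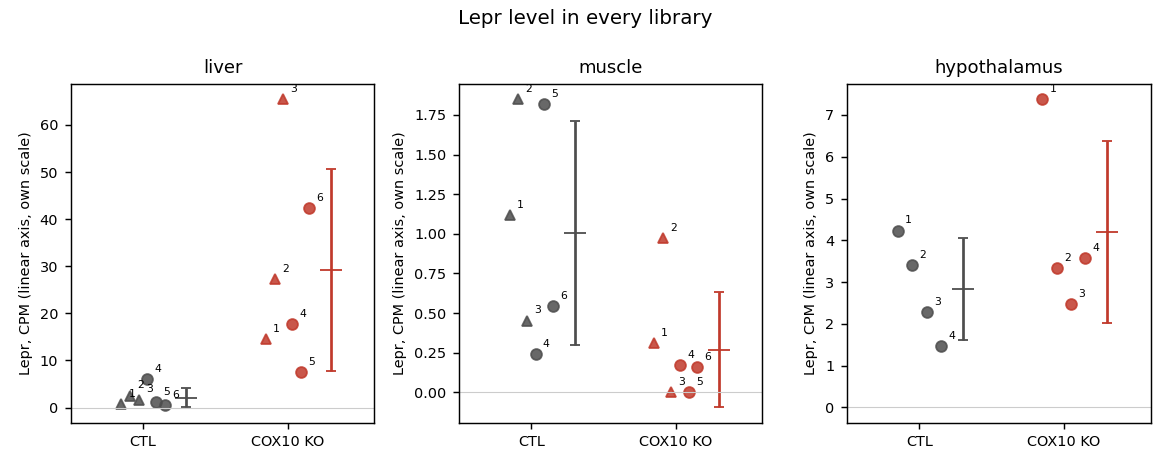
Lepr level (CPM, linear axes with a scale of their own in each tissue) in every library of CTL and COX10 KO mice, numbered by replicate; triangles are labelled female and circles male, and bars give the mean and SD. The COX10 KO livers sit between 7.60 and 65.5 CPM and the CTL livers between 0.488 and 6.12 CPM, whereas the genotypes overlap in muscle and hypothalamus.

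These values rest on few reads. CTL livers held 2 to 12 counts of Lepr each and COX10 KO livers 15 to 121, and counting error alone gives 95% exact Poisson intervals of 3.16 to 10.7 CPM for CTL 4 and 4.25 to 12.5 CPM for COX10 KO 5. These intervals cover counting error only, as no source used here names molecular identifiers that would tell PCR copies apart. Lepr passed the expression filter through its COX10 KO libraries, since 1 of 6 CTL but 6 of 6 COX10 KO livers reached the minimum of 4.48 CPM. Among all 9707 genes tested in liver, 0.0927% were called in either direction, 0.0206% higher and 0.0721% lower in COX10 KO, and 0.443% had groups that did not overlap. DESeq2, which called 0.272% of 20215 genes, gave a log2 fold change of 3.87 (adjusted p = 1.34e-06). The size of the difference was steadier than its call. Leaving out 1 library at a time gave log2 fold changes of 3.57 to 4.67, and the adjusted p of edgeR exceeded 0.05 in 9 of the 12 fits (without CTL 1, 2, 3, 5 or 6 or COX10 KO 1, 2, 3 or 6), with a highest value of 0.183 without COX10 KO 6.

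The difference was seen in both labelled sexes. Labelled females held 1.65 ± 0.909 CPM in control liver against 35.8 ± 26.5 CPM in the KO (SD, n = 3 each), a log2 fold change of 4.59 by edgeR (adjusted p = 0.235). Labelled males held 2.59 ± 3.07 CPM and 22.6 ± 17.9 CPM (n = 3 each), a log2 fold change of 3.31 (adjusted p = 1). Neither subset passed the threshold. The female subset holds CTL 1 (0.716 CPM of Lepr) and the male subset CTL 4 (6.12 CPM). The subsets therefore do not separate the sexes in CTL liver, and the sizes of their effects cannot be compared between sexes. Without CTL 1 and CTL 4, whose sex-linked transcripts contradict the labels, the log2 fold change was 4.32 (adjusted p = 0.0123). With sex read from the transcripts in place of the labels it was 4.05 (adjusted p = 0.00201).

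COX10 KO 3 and COX10 KO 6, the livers highest in Lepr, also held most counts of Cidec, a lipid droplet gene on the adipocyte list that fatty hepatocytes express too. Cidec counts were 22 and 204 in these libraries and 0 to 8 in the other 10. Of the other 5 adipocyte markers, Lep, Plin1 and Retn were at 0 in every liver library, Adipoq held at most 2 counts and Cfd at most 4. COX10 KO 6 and COX10 KO 4 also held muscle fibre transcripts, with summed markers of 621.5 and 129.3 CPM against 0.852 to 31.6 CPM in the other livers, while Lepr in muscle libraries did not exceed 1.85 CPM. Without COX10 KO 3 and COX10 KO 6, a choice made after the values were seen, the log2 fold change of Lepr in liver was 3.19 (adjusted p = 0.379). Summed markers of Kupffer cells and macrophages ran from 331.7 to 1565.8 CPM in CTL and from 209.2 to 698.9 CPM in COX10 KO livers. None of the 11 that passed the filter was called by edgeR (5 were called lower by DESeq2), and the median of their log2 fold changes was -1.49. Endothelial markers (192.5 to 322.3 CPM in CTL, 183.6 to 372.5 in COX10 KO) and stellate cell and fibroblast markers (248.8 to 364.7 and 181.7 to 457.7) overlapped between genotypes, as did hepatocyte markers (77037.1 to 130864.8 and 82070.8 to 190414.0). The part of cell composition in the Lepr difference was not tested, and in bulk tissue fewer cells of a type and less RNA per cell cannot be told apart.

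No other member passed the test in liver, so that 1 of the 7 genes was called there. Stat3 had a median of 210.0 CPM in CTL (175.8 to 273.0) and of 213.4 CPM in COX10 KO (80.2 to 249.6). Its fold change was 0.881 (95% interval 0.583 to 1.33, adjusted p = 0.997 by edgeR). The groups overlapped, and the low COX10 KO value came from replicate 3, the shallowest liver library. For Jak2, CTL livers ran from 10.3 to 17.4 CPM (median 11.7) and COX10 KO livers from 3.27 to 16.7 CPM (median 8.89). The fold change was 0.752 (0.473 to 1.19, adjusted p = 0.997), with 4 of 6 COX10 KO livers below the lowest CTL liver. Socs3, the feedback inhibitor, varied widely within each genotype, from 0.510 to 25.7 CPM in CTL livers and from 0 to 28.6 CPM in the KO. Its fold change was 0.861, with an interval of 0.302 to 2.45. The phosphatase genes Ptpn1 (20.5 to 93.5 CPM in CTL, 20.7 to 70.4 in COX10 KO) and Ptpn2 (7.60 to 23.9 and 9.82 to 17.7) and the adaptor gene Sh2b1 (17.9 to 43.4 and 16.2 to 62.2) overlapped between genotypes as well. Their fold changes were 0.939, 1.05 and 1.19.

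**Figure D2:**
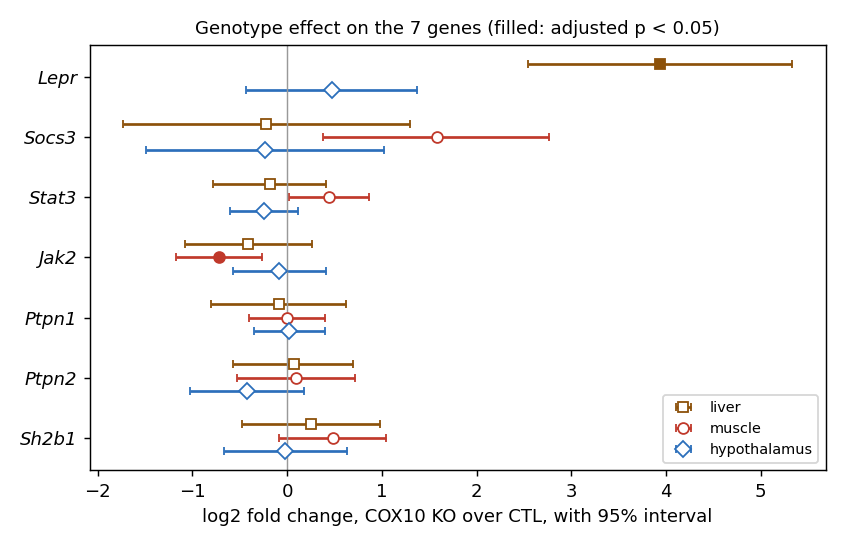
Fitted log2 fold change of COX10 KO over CTL for the 7 genes in each tissue (edgeR), with 95% intervals; filled symbols have an adjusted p under 0.05, and Lepr has no muscle value because it did not pass the filter there. Lepr in liver (3.94) stands to the right of the rest, and Jak2 in muscle (-0.72) is the other filled symbol.

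In muscle, the tissue in which COX10 was deleted, the leptin receptor was barely detected. Lepr counts were 5, 1, 1, 2, 4 and 1 in the CTL and 3, 6, 0, 1, 0 and 2 in the COX10 KO libraries, that is 0.241 to 1.85 CPM and 0 to 0.972 CPM. It did not pass the expression filter. The means of 1.00 ± 0.705 and 0.269 ± 0.364 CPM (SD, n = 6 each) differed with an exact two-sided permutation p of 0.0498, unadjusted. With no expression filter edgeR gave a log2 fold change of -1.66 (adjusted p = 0.375), and DESeq2 gave -1.81 (adjusted p = 0.221). In a joint fit of all 32 libraries, the genotype effect on Lepr was larger in liver than in muscle by 5.43 on the log2 scale (SE 1.07, 95% interval 3.25 to 7.61, adjusted p = 0.00351), and 2.83% of 15154 genes were called in that contrast. The muscle side of this contrast rests on 0 to 6 counts per library of a gene that did not pass the filter in muscle alone and entered the joint fit with the other tissues.

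Jak2, the kinase that starts the signal, was lower in COX10 KO muscle. CTL muscles held 22.5, 31.4, 16.7, 30, 27.8 and 37.6 CPM of Jak2 in replicates 1 to 6. COX10 KO muscles held 12.4, 18.5, 19.9, 15.7, 17.9 and 14.4 CPM. CTL 3 was the 1 control within the COX10 KO range, and the other 5 lay above it. The fold change was 0.609 (log2 -0.72, SE 0.22, adjusted p = 0.0364 by edgeR, exact permutation p = 0.00866). This was 1 call among the 6 members that passed the filter, in a tissue where 14.3% of 11636 genes were called (6.90% higher and 7.43% lower). The call is a narrow one. DESeq2 gave the same log2 fold change (-0.72, adjusted p = 0.0149), but 8 of the 12 fits without 1 library did not pass (without CTL 2, 5 or 6 or COX10 KO 1, 2, 4, 5 or 6, highest adjusted p = 0.101), with log2 fold changes of -0.83 to -0.59. The call was also lost with no expression filter (-0.66, adjusted p = 0.0877) and with a replicate block (-0.73, adjusted p = 0.0714). In labelled males Jak2 was 31.8 ± 5.18 against 16.0 ± 1.76 CPM (SD, n = 3 each, log2 fold change -0.96, adjusted p = 0.108 by edgeR). In labelled females it was 23.5 ± 7.38 against 16.9 ± 3.97 CPM (n = 3 each, log2 fold change -0.42, adjusted p = 0.554). A difference between the Jak2 effects in liver and muscle did not pass (liver minus muscle 0.25 on the log2 scale, 95% interval -0.46 to 0.96, adjusted p = 0.768).

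Socs3 and Stat3 were higher on average in COX10 KO muscle without passing the test. Socs3 held 14.6, 18.5, 2.71, 10.6, 1.37 and 2.73 CPM in CTL muscles. COX10 KO muscles held 18.2, 41.6, 33.7, 2.57, 12.3 and 37.4 CPM. COX10 KO 2, 3 and 6 exceeded every control, whereas COX10 KO 4 was lower than all but 1 of the controls. The fold change was 2.99 (95% interval 1.30 to 6.84, adjusted p = 0.0732 by edgeR), and DESeq2 called the gene (log2 1.6, adjusted p = 0.0425). It also passed the edgeR threshold without CTL 4 (0.0387), without COX10 KO 4 (0.0216) and with no expression filter (log2 1.62, adjusted p = 5.29e-07). With no filter the estimate stayed near the log2 1.58 of the main fit, while its SE was 0.28 in place of 0.56. The exact permutation test on CPM gave p = 0.0606 for Socs3. Stat3 ran from 79.5 to 132.9 CPM in CTL (median 93.1) and from 78.7 to 178.0 CPM in COX10 KO muscles (median 135.7). COX10 KO 4 was again the lowest, and 3 COX10 KO muscles lay above every CTL muscle. The fold change was 1.36 (1.01 to 1.82, adjusted p = 0.149). For both genes, CTL 2 was the highest control.

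The adaptor and phosphatase genes did not pass in muscle. Sh2b1 ran from 27.8 to 81.7 CPM in CTL (median 40.7) and from 56.0 to 84.9 CPM in COX10 KO muscles (median 66.8), a fold change of 1.39 (0.942 to 2.06, adjusted p = 0.244). Ptpn1 held 29.0 ± 5.91 CPM in CTL muscles and 29.5 ± 4.67 CPM in the KO (SD, n = 6 each). Its fold change was 1.00 (0.758 to 1.32). Ptpn2 held 12.2 ± 5.39 and 12.2 ± 4.97 CPM, with a fold change of 1.07 (0.692 to 1.65).

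**Figure D3:**
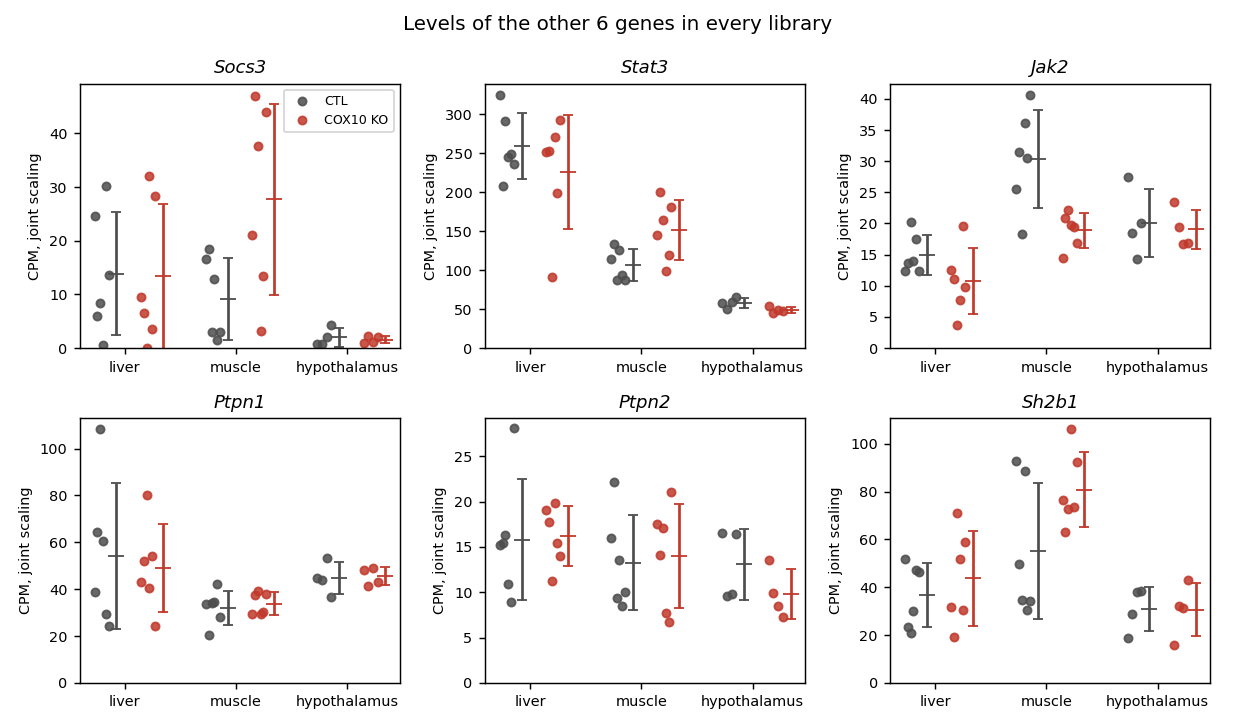
Levels of the other 6 genes (CPM scaled over all 32 libraries, linear axes from 0, lower bars clipped at 0) in CTL and COX10 KO libraries of each tissue; points are libraries and bars the mean and SD. Jak2 is lower in COX10 KO muscle (18.9 ± 2.84 against 30.4 ± 7.85 CPM), and Stat3 falls from liver to muscle to hypothalamus.

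In hypothalamus, where leptin acts on feeding, none of the 7 genes passed the test, and none of 13504 genes was called (0%; 211 had an unadjusted p under 0.05 by edgeR, and DESeq2 called 0 with 287). Lepr held 4.23, 3.41, 2.28 and 1.46 CPM in CTL replicates 1 to 4. In COX10 KO it held 7.38, 3.33, 2.48 and 3.57 CPM. COX10 KO 1 stood above the rest and the other values overlapped. The fold change was 1.38 (log2 0.47, SE 0.42, 95% interval of the fold 0.740 to 2.59, adjusted p = 1), so a rise of the size seen in liver lay outside the interval. That interval rests on 6 to 90 counts of Lepr in CTL and 12 to 34 in COX10 KO libraries, and the direct comparison with liver, given below, did not pass. Library 1 of each genotype was the highest in Lepr. COX10 KO 1 also held the highest sum of leptomeningeal markers, 167.3 CPM against 58.7 to 94.5 CPM in the other libraries. Without Ttr, choroid plexus markers summed to 52.6 to 106.6 CPM in CTL and 75.5 to 111.7 CPM in COX10 KO, highest in COX10 KO 1, and Ttr was 1231.5 to 2818.0 CPM in CTL and 3153.1 to 5270.1 CPM in COX10 KO. The part of these cell types in the Lepr values was not tested.

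Stat3 in hypothalamus held 86.2, 76.4, 89.0 and 103.2 CPM in CTL and 84.8, 69.4, 73.3 and 72.7 CPM in COX10 KO. Of the COX10 KO libraries, 3 were below every CTL library. The fold change was 0.847 (0.658 to 1.09) and did not pass (adjusted p = 1 by edgeR). Within same-numbered libraries, a pairing that no label states, Stat3 was lower in COX10 KO in 4 of 4. With the number as a block the log2 fold change was -0.23 (SE 0.10, adjusted p = 0.526 by edgeR). Ptpn1 was close to level, with 68.3 ± 9.61 against 69.5 ± 6.23 CPM (SD, n = 4 each) and a fold change of 1.02 (0.786 to 1.32). Jak2 (0.947, interval 0.673 to 1.33), Sh2b1 (0.983, 0.626 to 1.54), Ptpn2 (0.747, 0.493 to 1.13) and Socs3 (0.850, 0.356 to 2.03) likewise overlapped between genotypes. For Socs3 the counts were 5 to 28 in CTL and 7 to 14 in COX10 KO libraries, and the width of its interval is the limit. The joint fit put the Lepr effect in liver above that in hypothalamus by 3.47 on the log2 scale (SE 0.82, 95% interval 1.79 to 5.15), but this failed the correction over all genes (adjusted p = 0.755 by edgeR), a contrast in which 0% of genes were called. The muscle and hypothalamus effects on Lepr differed by -1.96 (SE 1.05, adjusted p = 0.475), against 0.891% of genes called.

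Between the tissues of CTL mice, the order of the levels differed from gene to gene. The values here are CPM scaled over all 32 libraries. Lepr was 2.5 ± 2.48 CPM in liver, 1.87 ± 0.827 in hypothalamus and 1.08 ± 0.733 in muscle (SD, n = 6, 4 and 6), and no pair of tissues passed the test (smallest adjusted p = 0.175 by edgeR). In COX10 KO mice the liver stood at 33.8 ± 24.6 CPM against 2.72 ± 1.34 in hypothalamus and 0.310 ± 0.409 in muscle. The gene with the clearest order was Stat3, at 259.1 ± 42.3 CPM in CTL liver, 106.8 ± 20.1 in muscle and 57.9 ± 6.37 in hypothalamus. Each step was called, with liver 2.44-fold above muscle (adjusted p = 8.84e-06) and muscle 1.84-fold above hypothalamus (adjusted p = 0.00287). Socs3 was 13.9 ± 11.4 CPM in liver and 9.20 ± 7.62 in muscle, a pair that did not pass (adjusted p = 0.338), and 1.99 ± 1.69 in hypothalamus, below liver (7.98-fold, adjusted p = 0.00109) and muscle (4.76-fold, adjusted p = 0.0135).

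Jak2 had another order, with 30.4 ± 7.85 CPM in CTL muscle, 20.1 ± 5.51 in hypothalamus and 15 ± 3.2 in liver. Muscle exceeded liver 2.01-fold (adjusted p = 6.70e-04), while the neighbouring pairs did not pass (adjusted p = 0.0576 for muscle against hypothalamus and 0.131 for liver against hypothalamus). Sh2b1 was highest in muscle (55.1 ± 28.4 CPM), which passed against hypothalamus (31.0 ± 9.36 CPM, 1.81-fold, adjusted p = 0.0381) and not against liver (36.6 ± 13.4 CPM, adjusted p = 0.110). Ptpn1 was higher in liver than in muscle (54.3 ± 31.1 against 32.1 ± 7.26 CPM, 1.58-fold, adjusted p = 0.0248), with hypothalamus between them at 44.7 ± 6.89 CPM and not called against either. Ptpn2 lay between 13.1 and 15.8 CPM in the 3 tissues with no call. Members were thus called 3 times between liver and muscle, 2 times between liver and hypothalamus and 3 times between muscle and hypothalamus, contrasts in which 55.6%, 69.4% and 63.9% of all genes were called.

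In liver, the 5 named genes whose log2 CPM followed Lepr most closely over the 12 libraries were Usp40 (Pearson r = 0.90), Cyp2c39 (0.89), Cyp4a10 (0.89), Rad51b (0.89) and Clcn4 (0.88). Usp40 encodes a ubiquitin protease, Cyp2c39 and Cyp4a10 are cytochrome P450 enzymes, Rad51b is a recombination repair gene and Clcn4 a chloride and proton exchanger. None of the 5 was called between genotypes, although Cyp4a10 averaged 820.7 CPM in CTL livers and 4300.8 CPM in the KO (log2 fold change 2.39, adjusted p = 0.242 by edgeR). Among members the values ran from -0.66 for Jak2 to 0.20 for Sh2b1. These correlations describe 12 libraries that share the genotype difference and are given without a test. Over the 8 hypothalamus libraries the closest genes were Bicc1 (0.97), Cnot10 (0.97), Fbn1 (0.96), Esr1 (0.96) and Zbtb12 (0.96), while members ran from -0.78 for Sh2b1 to 0.52 for Jak2. By rank correlation, 3 of the 5 genes in liver (Cyp2c39, Cyp4a10 and Clcn4) and 1 of the 5 in hypothalamus (Esr1) stayed among the closest 5. Lepr had too few counts in muscle for such a ranking.

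The wider pathway was read in 7 lists of 86 genes chosen with earlier results of these data known. In liver, none of these genes was called by edgeR or DESeq2. Of the 10 measured STAT3-responsive genes, the median log2 fold change was -0.67, beside -0.02 over all genes tested, and the 2 smallest p-values belonged to Mcl1, a survival gene (66.7 ± 12.2 CPM in CTL and 42.1 ± 9.90 in COX10 KO, adjusted p = 0.591), and Bcl3, a regulator of NF-kappaB (27.7 ± 7.97 and 16.8 ± 5.75 CPM, adjusted p = 0.817). The 12 hepatic acute phase genes that STAT3 can drive had a median of -0.66, and their smallest p-values were those of the serum amyloid genes Saa3 (77.7 ± 56.6 and 29.3 ± 9.26 CPM, adjusted p = 0.464) and Saa1 (140.5 ± 126.0 and 64.6 ± 93.8 CPM, adjusted p = 0.863). The brakes on JAK-STAT signalling had a median of -0.40 over 10 genes, with Socs6 (17.6 ± 5.27 and 11.6 ± 6.76 CPM) and Socs4 (9.78 ± 5.13 and 5.44 ± 2.60 CPM) foremost. Lep itself was not counted in any liver, and 3 counts, the limit taken here for a count of 0, are 4.91 CPM in the shallowest liver library.

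Genes that handle the receptor protein also did not pass in liver. Adam17 and Adam10 encode proteases that can shed receptor ectodomains. Adam17 held 23.2 ± 4.18 CPM in CTL livers and 16.6 ± 7.04 CPM in the KO and Adam10 held 30.8 ± 10.7 and 23.2 ± 8.17 CPM (SD, n = 6 each, adjusted p = 0.997 for both by edgeR). Among related receptors, the growth hormone receptor gene Ghr was lower in all 6 COX10 KO livers than in any CTL liver. Groups did not overlap for 0.443% of all genes tested in liver. Ghr held 1018.7 ± 875.7 and 442.5 ± 164.3 CPM but failed the correction over all genes (adjusted p = 0.878 by edgeR). Its medians were closer, at 705.1 and 534.7 CPM, and the highest CTL liver held 2802.2 CPM. The leukaemia inhibitory factor receptor gene Lifr held 466.3 ± 724.1 and 74.1 ± 53.6 CPM (adjusted p = 0.827 by edgeR). Its medians were 183.6 and 66 CPM, and the highest CTL liver held 1938.1 CPM. Among the JAK, STAT and adaptor genes, the AMPK subunit gene Prkaa1 held 11.8 ± 2.73 and 8.58 ± 2.36 CPM (adjusted p = 0.997).

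**Figure D4:**
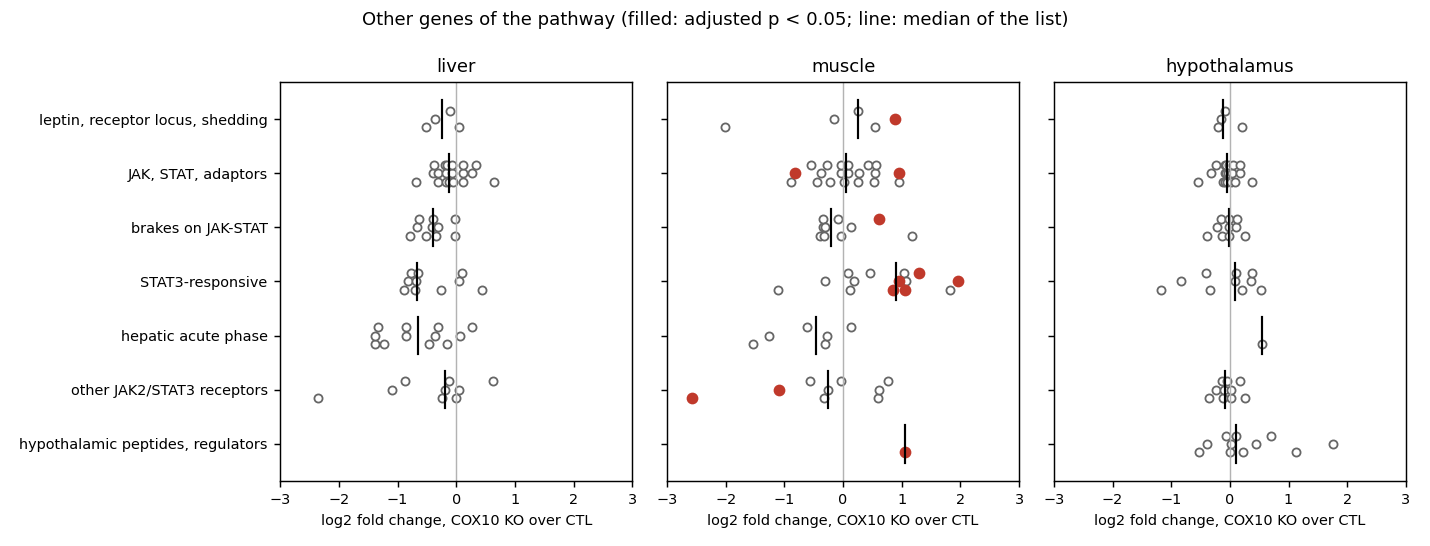
Fitted log2 fold change (COX10 KO over CTL) of the genes on the 7 pathway lists that passed the filter in each tissue; points are genes, filled where the adjusted p was under 0.05, and vertical lines give the median of the list. Filled points are found in muscle alone, with 5 of the 14 STAT3-responsive genes among them.

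In muscle, 65 of the 86 genes passed the filter and 12 of these were called, beside 14.3% of all genes tested. As the lists were chosen with earlier results of these data known, such shares describe the lists and do not test them. Of the 14 STAT3-responsive genes 5 rose and none fell, beside 6.90% of all genes called higher and 7.43% called lower, with a median log2 fold change of 0.90 beside -0.03 over all genes tested. They were Mcl1 (95.4 ± 15.5 CPM in CTL and 184.2 ± 36.3 in COX10 KO, adjusted p = 0.0032 by edgeR), the vascular growth factor gene Vegfa (68.4 ± 22.3 and 145.0 ± 30.8 CPM, adjusted p = 0.00831), Timp1, an inhibitor of matrix proteases (1.68 ± 2.28 and 7.89 ± 3.49 CPM, adjusted p = 0.0297), the kinase gene Pim3 (66.2 ± 27.6 and 159.8 ± 108.6 CPM, adjusted p = 0.0321) and Bcl2l1, which opposes cell death (26.2 ± 12.1 and 45.4 ± 9.78 CPM, adjusted p = 0.0451). For Mcl1 every COX10 KO muscle exceeded every CTL muscle, as for 6.39% of all genes tested in muscle that had groups without overlap. Timp1 rests on few reads, with 0 to 26 counts per CTL and 13 to 88 per COX10 KO library. The filter minimum in muscle was 1.9 CPM, beside a CTL median of 0.767 CPM and a lowest COX10 KO value of 4.45 CPM for Timp1. It thus passed the filter through its COX10 KO libraries.

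Single genes of the other lists were called in muscle as well. Leprotl1, a relative of the Leprot gene that limits receptor traffic to the cell surface, rose from 21.1 ± 6.91 to 37.9 ± 4.07 CPM (adjusted p = 0.0111 by edgeR). Tyk2, a kinase of the JAK family, rose from 7.29 ± 2.18 to 13.4 ± 2.70 CPM (adjusted p = 0.0163), and Stat5b fell from 255.0 ± 117.0 to 143.7 ± 13.7 CPM (adjusted p = 0.0354). Among the brakes Socs6 rose from 38.1 ± 10.1 to 60.1 ± 7.24 CPM (adjusted p = 0.0386). Both called receptors fell, Ghr from 215.4 ± 60.2 to 99.2 ± 18.3 CPM (adjusted p = 0.00266) and the ciliary neurotrophic factor receptor gene Cntfr from 2.81 ± 1.42 to 0.450 ± 0.590 CPM (adjusted p = 0.0140). Cntfr rests on few reads, with 1 to 14 counts per CTL and 0 to 10 per COX10 KO library. Its highest COX10 KO value, 1.59 CPM, was below the filter minimum of 1.9 CPM in muscle, so that Cntfr passed the filter through its CTL libraries. Nos1, the neuronal nitric oxide synthase that muscle fibres also make, rose from 139.9 ± 51.0 to 288.1 ± 51.5 CPM (adjusted p = 0.00348). No acute phase gene was called, the smallest p-values being those of Fgg (9.62 ± 20.6 and 1.72 ± 1.82 CPM, adjusted p = 0.448) and Hp (7.90 ± 7.38 and 4.34 ± 2.62 CPM, adjusted p = 0.475). Fgg held 51.7 CPM in CTL 2 and had medians of 1.28 CPM over the controls and 0.983 CPM over the KO muscles. CTL 2 also held summed hepatocyte markers of 2254.9 CPM against 19.6 to 319.1 CPM in the other muscle libraries.

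Markers of other cell types moved in muscle too. Of the 7 measured markers of Kupffer cells and macrophages Cd68, C1qa and Lyz2 were called higher, and the summed list ran from 108.0 to 337.7 CPM in CTL and from 206.8 to 498.2 CPM in COX10 KO. Fibre markers summed to 52131.0 to 145451.8 CPM in CTL and 55965.1 to 97636.8 CPM in COX10 KO muscle, and Myh4, Tnnt3 and Myl1 were called lower. The part of these shifts in the pathway genes was not tested. Without the library CTL 2, 14 pathway genes were called in place of 12, and the call of Socs6 was lost while Gal, Ifngr1 and Junb were added.

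In hypothalamus no pathway gene was called. Npy and Agrp, the peptides of the neurons that leptin restrains, had the smallest p-values of their list, with 107.8 ± 37.4 and 235.3 ± 58.5 CPM for Npy and 3.33 ± 1.22 and 11.5 ± 10.3 CPM for Agrp (SD, n = 4 each, unadjusted p = 0.00132 and 0.0156, adjusted p = 1 for both by edgeR). The groups of Npy did not overlap, as for 1.41% of all genes tested there. For Agrp 3 COX10 KO libraries lay above every CTL library. Another 1, at 1.24 CPM, lay below the lowest CTL library (1.95 CPM), and the exact permutation test gave p = 0.143. The immediate early gene Fos (5.18 ± 1.58 and 2.16 ± 0.976 CPM) and Vegfa (27.5 ± 12.8 and 15.4 ± 0.959 CPM) were lower in every COX10 KO library than in any CTL library, Foxo1 (41.6 ± 7.19 and 54.2 ± 2.67 CPM) was higher in every one, and none of the 3 passed (adjusted p = 1). The other genes with the smallest p-values of their lists, Leprotl1, Adam17, Pik3ca, Ptpre, Socs6, Lbp, Ifngr2 and Cntfr, overlapped between genotypes, with fold changes from 0.786 for Ifngr2 to 1.45 for Lbp (adjusted p = 1 for each). Over the lists, the medians in hypothalamus lay between -0.12 and 0.10 on the log2 scale where at least 4 genes were measured. Leptin transcripts were not counted in any liver or hypothalamus library, and in muscle Lep held 63 counts over the CTL libraries, 30 of them in CTL 2, and 54 over the COX10 KO libraries.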

How the data were processed

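RNA from flash-frozen liver, calf muscle and hypothalamus was made into QuantSeq 3′ libraries. The authors aligned reads of 86 bases with STAR 2.5.0a to GRCm38.p6 and deposited raw counts per gene from HTSeq 0.6.1. The annotation release and strand setting of the counting are not given in the sources used here. Reads at a transcript's 3′ end are counted without correction for length, so that levels were compared between tissues for 1 gene at a time. Identifiers were given symbols from GENCODE M21, and 55141 of 55401 matched. No row without a gene name and no identical pair of libraries was found.

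In R 4.3.3, edgeR 4.0.16 fitted each tissue on its own (TMM factors, filterByExpr with a minimum count of 10 and total of 15, quasi-likelihood F test). Labelled sex was a covariate in liver and muscle. A joint fit of all 32 libraries tested tissue contrasts and the differences of genotype effects. A gene was called where its p, adjusted by Benjamini-Hochberg over all genes tested, was under 0.05. Standard errors were the fold change on the log2 scale divided by the root of F. Exact permutation tests and Poisson intervals used scipy 1.17.1. Alternatives were DESeq2 1.42.0, RLE factors, other filters, no sex term, sex from transcripts, each sex alone, a replicate block and leaving out libraries. Nothing in the labels says that the samples of a group are more than separate samples, so p-values measure the spread between these samples. On counts simulated from these libraries, edgeR recovered 74% of 4-fold changes in liver (9707 genes), 87% in muscle (11636) and 93% in hypothalamus (13504), and 9%, 32% and 32% of 2-fold changes. For the genotype effect, liver minus muscle, it recovered 33% of 4-fold and 0% of 2-fold differences (15154 genes). Of the edgeR calls on simulated counts, 4.6% were false in liver, 4.0% in muscle and 3.8% in hypothalamus. For DESeq2 these shares were 12.3%, 11.9% and 12.0%, above the 5% that the threshold of 0.05 aims at. The simulated counts covered the genes past the filter and used the spread estimated by edgeR, whereas DESeq2 was run on 20215 genes in liver. How often its calls above are false was therefore not measured, and its smaller adjusted p-values are to be read with that limit.

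The members and gene lists were chosen with earlier results of these data known. Named besides the members were, of each pathway list, the genes called in a tissue (at most 6, by p) or otherwise the 2 with the smallest p, and the 5 named genes with the highest correlation with Lepr. A gene that this rule names in liver is not reported here. The study's methods describe males unless stated otherwise, whereas the labels give both sexes in liver and muscle, and the labels were followed. Deviations of same-numbered hypothalamus libraries had correlations of 0.805, 0.204, 0.395 and 0.308. For numbers 3 and 4 the highest correlation with another number was larger (0.469 for each), and no label states a pairing. The main fit did not pair these libraries, and the number was a block in an alternative fit only. In liver and muscle, same-numbered libraries did not deviate together throughout.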

Additional observations from a re-analysis of the deposited data

Results flagged for a closer look

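Among 42 groups of Lepr and the other members, 2 held a library apart from the rest, where chance gives about 1 in 20. CTL 4 in liver held 6.12 CPM of Lepr and the next CTL liver 2.53 CPM. COX10 KO 2 in muscle held 0.972 CPM of Lepr and the next 0.313 CPM, which is 6 counts against 3. The genotype effect on Lepr differed between liver and muscle by 5.43 on the log2 scale in the joint fit, of which the muscle side rests on 0 to 6 counts per library.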

How the results depend on the processing

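Of 2108 values under alternatives, 2016 stayed on their side of the threshold (counts of calls within 1.5 times), 53 lost a call, 10 gained one and 29 were values or counts that moved further. No called value changed direction, while 87 values called in neither fit changed sign. The Lepr log2 fold change in liver was 3.31 in labelled males alone and 4.59 in labelled females alone. It was 3.19 without COX10 KO 3 and COX10 KO 6 (added after the data were seen). None of these passed the threshold. Without 1 library the log2 fold change was 3.57 to 4.67. With the replicate block it was 3.83 (adjusted p = 0.0430 by edgeR). Members called in liver were 0 with at least 10 counts in every library (a filter that removes Lepr) and 0 without COX10 KO 3 and COX10 KO 6. They were also 0 in labelled males alone, 0 in labelled females alone and 0 to 1 without 1 library. In muscle they were 2 by DESeq2, 0 with the replicate block, 0 in males alone, 0 in females alone and 0 to 2 without 1 library. The replicate block gave -0.73 for Jak2 in muscle (adjusted p = 0.0714) and changed no other genotype call of a member. For Jak2, CTL muscle minus CTL hypothalamus passed with the block (log2 difference 0.62, adjusted p = 0.048). In hypothalamus the block gave 0.56 for Lepr (adjusted p = 0.575). Members called between CTL muscle and CTL hypothalamus were 1 to 3 without 1 library. The causes were not tested. Few counts limit Lepr in liver, muscle and hypothalamus.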
